A study of Homo sapiens with 4 samples.

Results

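The contents of the cytotoxic granule were followed through 10 genes in NK-92 cells, an established human natural killer (NK) cell lymphoma line, with and without knockdown of the RNA-editing enzyme ADAR1. The set held 5 granzymes (GZMA, GZMB, GZMH, GZMK and GZMM), the pore-forming proteins perforin (PRF1) and granulysin (GNLY), the granule membrane protein NKG7, the granule proteoglycan serglycin (SRGN) and the protease cathepsin C (CTSC). Members were taken by name, by matching Ensembl identifiers to symbols, and all 10 were found among the 20323 genes listed. The identifiers were ENSG00000145649 (GZMA), ENSG00000100453 (GZMB), ENSG00000100450 (GZMH), ENSG00000113088 (GZMK), ENSG00000197540 (GZMM), ENSG00000180644 (PRF1), ENSG00000115523 (GNLY), ENSG00000105374 (NKG7), ENSG00000122862 (SRGN) and ENSG00000109861 (CTSC). Messenger RNA was sequenced from 2 NK scramble libraries, which carried a scrambled short hairpin RNA, and from 2 NK shADAR1 libraries, which carried a hairpin against ADAR1. Both groups were NK-92 cells transduced by lentivirus with polybrene and spinning, and both grew in medium with IL-2 at 100 IU/ml. The model is 1 cell line that grows on IL-2. The libraries of each group were described as independent biological replicates. The knockdown libraries are labelled shADAR1-1 and shADAR1-2, which in the study are also the names of hairpins, and the study describes sequencing of NK shADAR1-2 cells, so whether both libraries carried the same hairpin is not settled by the sources used here. With 2 libraries per group, the p-values below measure only the spread between these libraries.

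NK cells kill by releasing preformed granules at the contact with a target cell. Perforin opens the target membrane, and granzymes, a family of serine proteases, enter and cleave proteins of the target. Granzymes are made as inactive zymogens, are trimmed by cathepsin C, and are stored at acid pH on the chondroitin sulfate chains of serglycin. NK cells hold these messages ready before they meet a target, so granule genes are usually among the most abundant in an NK cell.

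Estimated counts summed to between 37881704 and 39960491 per library. ADAR itself measured 655 and 682 CPM (counts scaled to library size with edgeR's TMM factors) in the NK scramble libraries, against 575 and 482 in the NK shADAR1 libraries. Its groups did not overlap, as for 26% of all genes tested, and its log2 fold change was -0.34 (SE 0.20). It did not pass edgeR's quasi-likelihood test (adjusted p = 1.00 after Benjamini-Hochberg adjustment). The study reported the knockdown in NK-92 cells by qRT-PCR and western blotting, and these libraries do not measure protein. Of 12 NK cell markers, 11 passed the expression filter, at a summed 1034 to 1055 FPKM (a value scaled by transcript length and library depth) in NK scramble, against 1041 to 1250.1 in NK shADAR1, and KLRF1 was near 0. Of 8 T cell markers 3 passed, with CD3E well expressed and CD8A and CD8B at 0 in all 4 libraries, and the list summed to 414 to 504 FPKM in NK scramble and 476 to 572 in NK shADAR1. The ranges of both lists overlapped between the groups. The B cell list summed to at most 2.46 FPKM. The myeloid list summed to 0.418 to 0.491 FPKM in NK scramble, against 0.688 to 0.80 in NK shADAR1, and the mast cell list to 0.232 to 0.335 against 0.362 to 0.429, and the part of these traces in the results below was not tested. In bulk RNA, fewer cells of a type and less RNA per cell cannot be told apart.

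The granzyme genes lie in 3 places. On human assembly GRCh38 with GENCODE release 29 gene models, GZMK (chr5:55024253-55034570, plus strand) and GZMA (chr5:55102648-55110252, plus strand) are neighbours with 68077 bases between them. GZMH (chr14:24606480-24609699, minus strand) and GZMB (chr14:24630954-24634267, minus strand) sit 21254 bases apart in the chymase locus, and GZMM (chr19:544034-549924, plus strand) lies 275172 bases from AZU1 in a locus of neutrophil proteases. The other members are single genes, PRF1 at chr10:70597348-70602775 (minus strand), SRGN at chr10:69088106-69104811 (plus), GNLY at chr2:85685175-85698854 (plus), NKG7 at chr19:51371606-51372715 (minus) and CTSC at chr11:88293592-88337787 (minus). Of 6 other serine protease genes of these loci (CTSG and CMA1 beside GZMH, and AZU1, PRTN3, ELANE and CFD beside GZMM), 0 passed the expression filter. CMA1, CTSG, ELANE and PRTN3 had 0 counts in all 4 libraries, which allows at most 0.0751 to 0.0792 CPM per library (3 counts, for counting error only). AZU1 had at most 9 counts in a library and CFD at most 8. Beside the expressed granzymes, then, the myeloid and mast cell proteases of the same loci were at or near 0.

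The coding sequences of GZMB and GZMH bear on how far their counts can be told apart. Of 734 aligned coding bases, 594 are the same (80.9%), and the longest shared run is 106 bases. Every other granzyme pair shares 61.1% to 67.3% of its aligned bases, and no run longer than 15. Both ends of that range and the run of 15 come from pairs with GZMM, whose transcript used here had 657 coding bases. Those of the other granzymes had 741 to 795. The run shared by GZMB and GZMH covers coding bases 252 to 357 of both genes and crosses from exon 3 into exon 4 of 5. It lies at chr14:24632101-24632411 for GZMB and chr14:24607389-24607699 for GZMH (GRCh38, minus strand, intron included in the interval). It is printed 5′ to 3′ on the coding strand without the intron, from GENCODE release 29, with the run in capitals and 15 coding bases on each side in lower case.
GZMB: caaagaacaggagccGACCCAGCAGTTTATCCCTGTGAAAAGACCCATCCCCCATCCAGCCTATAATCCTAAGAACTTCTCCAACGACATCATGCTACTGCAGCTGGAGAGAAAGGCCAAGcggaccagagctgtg
GZMH: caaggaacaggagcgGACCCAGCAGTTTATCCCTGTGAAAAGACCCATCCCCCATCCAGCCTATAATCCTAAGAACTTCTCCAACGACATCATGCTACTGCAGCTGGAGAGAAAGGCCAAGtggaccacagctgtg
A read of 50 bases inside the capitals would have no base that tells the genes apart. The 50 bases are a window set here and not the read length of these libraries, and longer reads could reach bases that differ. The deposited values for GZMB and GZMH were not whole numbers in any of the 4 libraries, while those of the other 8 members were whole in all of them (tolerance 0.001). Values that were not whole in at least 1 library were found for 3285 of the 20323 genes listed, so they are not particular to this pair. Whether reads were shared between GZMB and GZMH was not tested, so the split of counts between them may be uncertain.

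The sequences just upstream of the start sites are shown because RUNX3, T-bet and other factors of NK cells are known to act on granule genes. The RefSeq promoter table (GRCh38.p14, from -250 to +50 around the start) held 7 of the 10 members and lacked GZMK, GZMM and SRGN. The RUNX core TGTGGT, or ACCACA on the other strand, stood in 4 of the 7 windows, against 13.1% of all 35116 windows. Its first base lay at -54 in GZMA, -62 in PRF1, -62 in GNLY, and -190 and -93 in GZMB, counted from the start site. NKG7, CTSC and GZMH had no match in their windows. Bases -120 to -1 are printed on the strand of the gene with the RUNX core in capitals, and GZMH, a neighbour of GZMB, is printed beside them. The starts of this table lie inside the GENCODE intervals given above for GNLY, PRF1, GZMB, GZMH, CTSC and NKG7, and not for GZMA. Bases printed for PRF1, GNLY, GZMB and GZMH therefore fall partly or wholly within those gene models. Positions counted from the GENCODE starts would differ.
GZMA (chr5:55102526-55102645, plus strand): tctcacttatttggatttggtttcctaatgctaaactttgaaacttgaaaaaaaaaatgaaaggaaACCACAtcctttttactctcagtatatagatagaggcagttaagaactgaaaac
PRF1 (chr10:70602742-70602861, minus strand): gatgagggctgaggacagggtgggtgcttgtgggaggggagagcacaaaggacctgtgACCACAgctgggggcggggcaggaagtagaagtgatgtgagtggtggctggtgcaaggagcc
GNLY (chr2:85694238-85694357, plus strand): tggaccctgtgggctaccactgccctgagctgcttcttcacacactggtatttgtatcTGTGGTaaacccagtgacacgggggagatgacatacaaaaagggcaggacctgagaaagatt
GZMB (chr14:24634191-24634310, minus strand): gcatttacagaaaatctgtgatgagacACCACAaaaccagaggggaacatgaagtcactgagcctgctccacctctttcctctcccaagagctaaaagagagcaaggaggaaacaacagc
GZMH (chr14:24609686-24609805, minus strand): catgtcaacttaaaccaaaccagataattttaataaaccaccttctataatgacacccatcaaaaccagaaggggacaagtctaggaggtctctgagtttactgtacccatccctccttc
Other 6-base motifs searched on both strands were rarer among the members. The ETS core GGAAGT (22.8% of all windows) was found in PRF1, the T-box core GGTGTG (16.8%) in GNLY, the CRE core TGACGT (7.98%) in GZMB, and TATAAA (11.5%) in none of the 7. A match is a stretch of letters and not a measured site, and none of the 4 libraries measured binding.

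On the FPKM scale, which corrects for transcript length and allows genes to be set side by side, 8 of the 10 members ranked among the 500 most abundant genes of the NK-92 libraries. NKG7, which is needed for granule release, had the highest level, at 1742 and 2081 FPKM in the NK scramble libraries, against 1896 and 1949 in the NK shADAR1 libraries, and ranked 34 of 20323 genes by mean FPKM. GZMA, a trypsin-like granzyme, followed at 1131 and 1688 FPKM in the NK scramble libraries, against 1224 and 1732 in the NK shADAR1 libraries, rank 51. GNLY, a pore former that acts on microbial and tumor membranes, reached 744 and 853 FPKM in the NK scramble libraries, against 867 and 870.3 in the NK shADAR1 libraries, rank 111. These genes outranked GZMB, the granzyme that cleaves after aspartate and activates caspases, in every library.

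**Figure D1:**
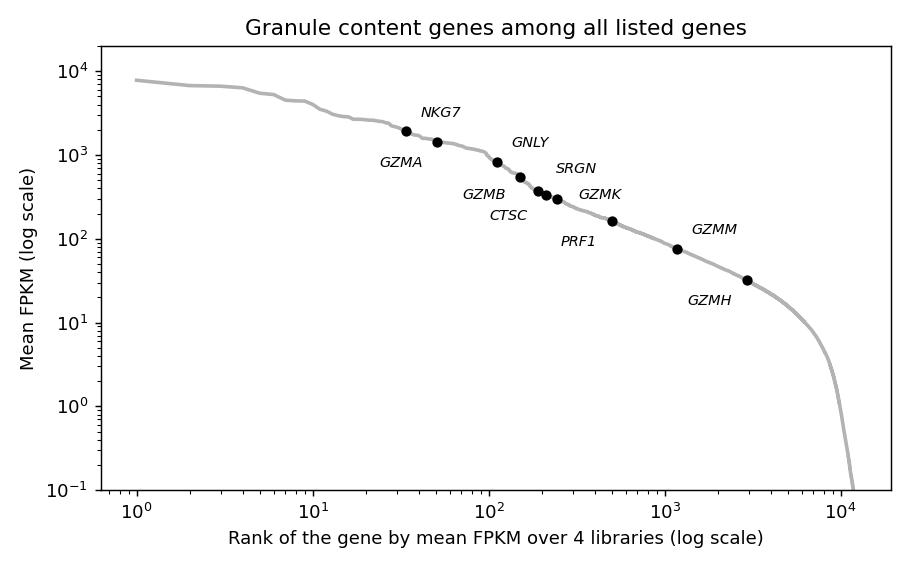
Mean FPKM over the 4 libraries (log scale) against rank among all listed genes (log scale), with the 10 granule content genes as black points on the grey curve of all genes. NKG7 ranks 34, 8 members rank at 500 or better, and GZMH ranks 2923.

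GZMB measured 526 and 566 FPKM in the NK scramble libraries, against 597 and 500.2 in the NK shADAR1 libraries (rank 151). SRGN stood at 361 and 367 FPKM in the NK scramble libraries, against 323 and 417 in the NK shADAR1 libraries (rank 191), and CTSC at 349.6 and 362 against 310.0 and 328 (rank 211). GZMK, another trypsin-like granzyme, stood at 247 and 363 FPKM in the NK scramble libraries, against 236 and 333 in the NK shADAR1 libraries (rank 244). SRGN and CTSC overlapped in level over the 4 libraries, as did CTSC and GZMK, so the order of these neighbours is not resolved. Every other pair of neighbours in the order was separate in all 4 libraries. PRF1 measured 164 and 167 FPKM in the NK scramble libraries, against 191 and 135 in the NK shADAR1 libraries (rank 500). GZMM, which cleaves after methionine or leucine, measured 88.6 and 66.0 FPKM against 88.7 and 60.8 (rank 1178). GZMH, a chymase-like granzyme, was the lowest at 30.8 and 30.9 FPKM in the NK scramble libraries, against 34.9 and 31.6 in the NK shADAR1 libraries (rank 2923).

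**Figure D2:**
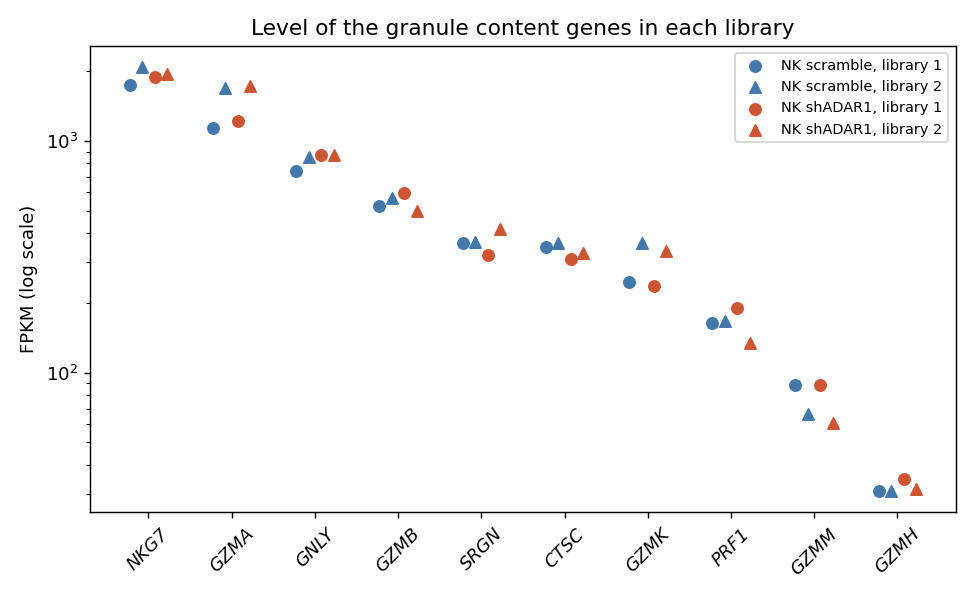
FPKM (log scale) of each granule content gene in the 4 libraries, blue for NK scramble and red for NK shADAR1, circles for the libraries numbered 1 and triangles for those numbered 2. The groups interleave for most genes, and for GZMA and GZMK the triangles of both colours lie above the circles.

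The granzyme pool was dominated by GZMA. Of the summed FPKM of the 5 granzymes, GZMA held 55.9% and 62.2% in the NK scramble libraries, against 56.1% and 65.2% in the NK shADAR1 libraries. GZMB held 26.0% and 20.8% in the NK scramble libraries, against 27.4% and 18.8% in the NK shADAR1 libraries. GZMA thus exceeded GZMB by 2.15 and 2.98 times in NK scramble and by 2.05 and 3.46 times in NK shADAR1, with the groups overlapping. GZMK held 10.8% to 13.4% over the 4 libraries, GZMM 2.29% to 4.38% and GZMH 1.14% to 1.60%. GZMB exceeded GZMH, with which it may share reads, by 15.8 to 18.3 times. Together the 10 members took 0.531% and 0.639% of all estimated counts in the NK scramble libraries, against 0.564% and 0.615% in the NK shADAR1 libraries. The mean share differed by 0.0045 percentage points between the groups, which is less than the libraries of either group differed from each other.

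The comparison of NK shADAR1 with NK scramble asks whether these messages moved with the knockdown. None of the 10 members had both a fold change of 1.5 or more and an adjusted p under 0.05 (the quasi-likelihood test of edgeR, adjusted by the Benjamini-Hochberg method), against 0% of the 11810 genes tested. At an unadjusted p under 0.05, 293 genes (2.48%) passed and 0 members did, and DESeq2 also called 0 genes after adjustment, with a smallest adjusted p of 0.146. All 10 members passed the expression filter, with 1092 to 64480 estimated counts per library, so none was lost to low counts. Their log2 fold changes ran from -0.15 to 0.11, 5 above and 5 below 0, GZMB and NKG7 being so near 0 that another scaling, filter or test turned their sign, with a median of -0.00336, beside a median of 2.76e-05 over all genes tested. The groups did not overlap for 2 members, GZMH and CTSC, against 26% of all genes tested. Values below are TMM-scaled CPM, given for NK scramble and then NK shADAR1, and the adjusted p was 1.00 for every member.

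**Figure D3:**
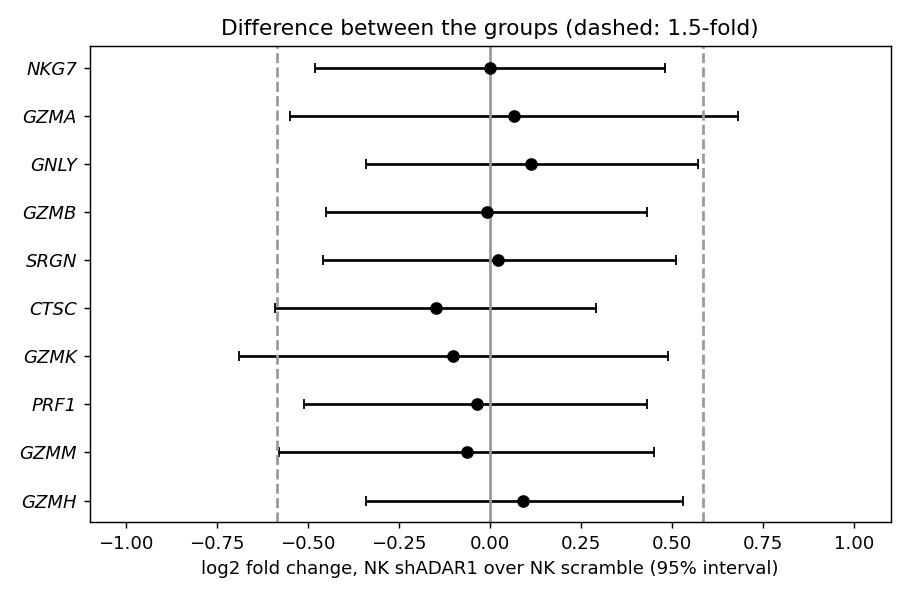
log2 fold change of NK shADAR1 over NK scramble for each member with its 95% interval (edgeR), the dashed lines marking a fold change of 1.5 in either direction. All 10 intervals include 0, and those of GZMA, GZMK and CTSC reach past a dashed line.

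Of the granzymes, GZMA measured 1003 and 1538 CPM in the NK scramble libraries, against 1056 and 1602 in the NK shADAR1 libraries. The group means were 1271 ± 378 and 1329 ± 386 (SD, n = 2), and the log2 fold change was 0.06 (SE 0.28). The library numbered 1 was the lower in both groups and the groups overlapped. GZMK, its neighbour on chromosome 5, measured 368 and 556 CPM in the NK scramble libraries, against 343 and 518 in the NK shADAR1 libraries. Its means were 462 ± 133 and 431 ± 124 (SD, n = 2), with a log2 fold change of -0.10 (SE 0.27). GZMK was low and high in the same libraries as GZMA. The 95% intervals of the fold change, 0.684 to 1.60 for GZMA and 0.618 to 1.41 for GZMK, were the widest of the members.

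GZMB, the granzyme most often tied to killing by NK cells, measured 461 and 509 CPM in the NK scramble libraries, against 508 and 456 in the NK shADAR1 libraries. Its means were 485 ± 34.1 and 482 ± 36.9 (SD, n = 2), the log2 fold change was -0.01 (SE 0.20), and the 95% interval of the fold change was 0.733 to 1.35. The libraries of the groups were nearly the same pair of values in opposite order. GZMH measured 27.6 and 28.4 CPM in the NK scramble libraries, against 30.4 and 29.2 in the NK shADAR1 libraries, with a log2 fold change of 0.09 (SE 0.20). Its means were 28.0 ± 0.516 and 29.8 ± 0.807 (SD, n = 2). Both NK shADAR1 libraries lay above both NK scramble libraries, and the 95% interval of the fold change, 0.788 to 1.44, included 1. GZMM measured 81.1 and 62.0 CPM in the NK scramble libraries, against 78.9 and 58.0 in the NK shADAR1 libraries, with means of 71.6 ± 13.5 and 68.5 ± 14.8 (SD, n = 2) and a log2 fold change of -0.06 (SE 0.23). The library numbered 2 was the lower in both groups, opposite to GZMA and GZMK.

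Of the pore formers, PRF1 measured 403 and 422 CPM in the NK scramble libraries, against 458 and 347 in the NK shADAR1 libraries. The knockdown libraries fell on either side of the control libraries, and the log2 fold change was -0.04 (SE 0.21). The means were 413 ± 13.0 and 402 ± 78.9 (SD, n = 2), with a 95% interval of the fold change of 0.705 to 1.35. Compared by library number, PRF1 in NK shADAR1 was 1.14 times NK scramble for the libraries numbered 1 and 0.822 times for those numbered 2. GNLY measured 573 and 675 CPM in the NK scramble libraries, against 649 and 699 in the NK shADAR1 libraries. Its means were 624 ± 71.6 and 674 ± 35.4 (SD, n = 2), and its log2 fold change of 0.11 (SE 0.20) was the highest of the members, with a 95% interval of the fold change of 0.789 to 1.48. On CPM the lower NK shADAR1 library lay below the higher NK scramble library, so the groups overlapped, while on FPKM and on CPM scaled by library totals alone both NK shADAR1 libraries lay above both NK scramble libraries.

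NKG7 measured 1326 and 1641 CPM in the NK scramble libraries, against 1411 and 1557 in the NK shADAR1 libraries, so that both knockdown libraries lay between the control libraries. Its means were 1484 ± 223 and 1484 ± 103 (SD, n = 2), with a log2 fold change of 0.00 (SE 0.22) and a 95% interval of the fold change of 0.718 to 1.39. SRGN, whose sulfated chains hold granzymes and perforin in the granule, measured 435 and 454 CPM in the NK scramble libraries, against 379 and 524 in the NK shADAR1 libraries. Both control libraries lay between the knockdown libraries, and the means were 445 ± 13.5 and 451 ± 102 (SD, n = 2). The log2 fold change was 0.02 (SE 0.22), with a 95% interval of the fold change of 0.726 to 1.42. CTSC, the dipeptidase that activates granzymes, measured 578 and 609 CPM in the NK scramble libraries, against 514 and 557 in the NK shADAR1 libraries. Both NK shADAR1 libraries lay below both NK scramble libraries, and the means were 594 ± 21.98 and 536 ± 30.5 (SD, n = 2). Its log2 fold change of -0.15 (SE 0.20) was the lowest of the members, with an unadjusted p of 0.469 and a 95% interval of the fold change of 0.666 to 1.22. For 7 of the 10 members the 95% interval stayed inside a fold change of 1.5 in either direction, and for GZMA, GZMK and CTSC it did not.

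For 8 of the 10 members, all but GZMH and CTSC, the libraries of at least 1 group differed by more than the group means did, a share near that of all genes tested (85.1%). GZMA in the library numbered 2 was 1.53 times that numbered 1 in NK scramble and 1.52 times in NK shADAR1, and GZMK was 1.51 times in both groups. GZMM in the library numbered 2 was 0.765 times that numbered 1 in NK scramble and 0.735 times in NK shADAR1. By any amount, 6 members were higher in the libraries numbered 2 of both groups (29.8% of all genes tested) and 1 was lower (30% of them), while GZMB, GZMH and PRF1 went in opposite directions in the groups (40.2%). SRGN and PRF1 differed mostly in NK shADAR1, where the log2 ratio of the library numbered 2 to that numbered 1 was 0.47 for SRGN and -0.40 for PRF1, against 0.06 for each in NK scramble. A log2 ratio of at least 0.5 in both groups, which of the members GZMA and GZMK had, was found in 355 of the genes tested (3.01%), and one of -0.5 or below, which no member had, in 570 (4.83%). The longest coding transcripts of GZMK and GZMA had a GC content of 40.5% and 42.7%, and that of GZMM 66.8%, the highest of the members. SRGN (38.1%) and CTSC (38.2%) had the lowest GC content, and CTSC differed little between libraries, by 1.05 times in NK scramble and 1.08 times in NK shADAR1. The part of GC content in these differences was not tested. The labels do not say what the libraries of the same number share.

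**Figure D4:**
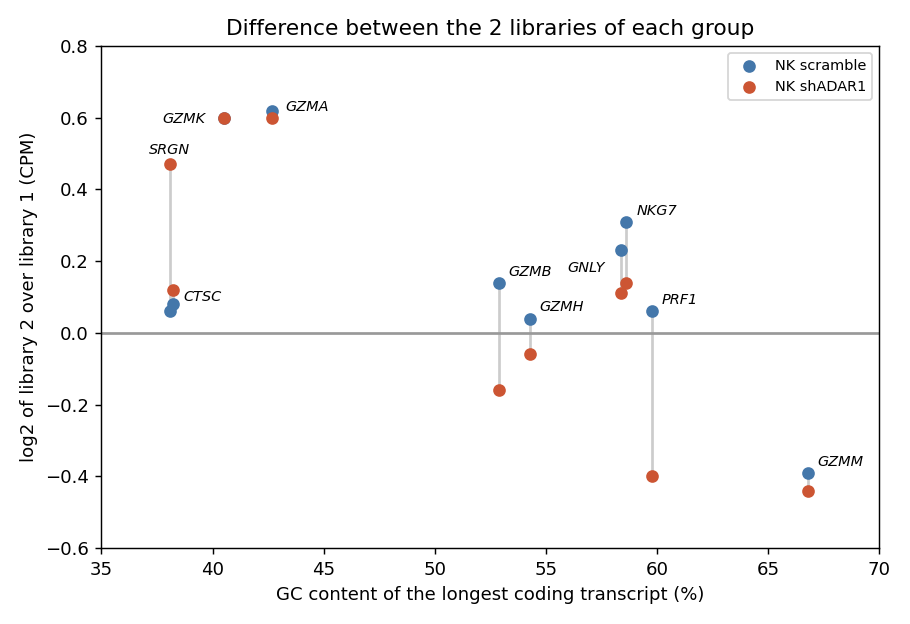
log2 ratio of the CPM in the library numbered 2 to that in the library numbered 1 of each group (blue NK scramble, red NK shADAR1, joined for each gene) against the GC content of the longest coding transcript in percent. GZMA and GZMK lie near 0.60 in both groups and GZMM near -0.4, and the GZMK points of both groups coincide.

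The genes that process, sort, store and release granule contents were read from 6 further lists, of which 0 genes passed the adjusted threshold. Cathepsin and granzyme control was measured in 6 tested genes of 9 (2 higher and 4 lower, median log2 fold change -0.11, 0 at an unadjusted p under 0.05), and the median was 0.0486 without NK scramble replicate 2. Cystatin F (CST7), the granule inhibitor of cathepsin C, was the most abundant, at 467 and 494 CPM in the NK scramble libraries, against 538 and 517 in the NK shADAR1 libraries. Its groups did not overlap and its log2 fold change was 0.13 (SE 0.19). SERPINB9, the cytosolic inhibitor of GZMB, measured 147 and 189 CPM in the NK scramble libraries, against 154 and 139 in the NK shADAR1 libraries, and its groups overlapped. SERPINB6, another intracellular serpin, was low, at 7.04 and 6.62 CPM against 4.32 and 6.51 CPM, with a log2 fold change of -0.33 (SE 0.30) that was -0.07 without NK shADAR1 replicate 1 and -0.66 without NK shADAR1 replicate 2. CTSL, CST3 and SERPINB4 did not pass the expression filter, and CTSH, another protease able to activate GZMB, was close to 1 CPM.

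Of 15 other lysosome and granule proteins, 14 were tested, 9 higher and 5 lower, with a median log2 fold change of 0.0954 and 0 at an unadjusted p under 0.05. The median was -0.0625 without NK shADAR1 replicate 1 and -0.0421 without NK scramble replicate 2. Cathepsin W (CTSW), a protease found mainly in NK and cytotoxic T cells, was the most abundant of them, at a mean of 1281 FPKM and rank 70. It measured 1345 and 1645 CPM in the NK scramble libraries, against 1786 and 1762 in the NK shADAR1 libraries, and the groups did not overlap. Its log2 fold change was 0.25 (SE 0.21, unadjusted p 0.272). Calreticulin (CALR), an ER chaperone also found with perforin in granules, measured 1113 and 1026 CPM in the NK scramble libraries, against 773 and 967 in the NK shADAR1 libraries, with a log2 fold change of -0.30 (SE 0.21) and groups that did not overlap. Its log2 fold change was -0.14 without NK shADAR1 replicate 1 and -0.47 without NK shADAR1 replicate 2. CTSB was close to the floor of expression, at 1.45 to 3.45 CPM.

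The mannose 6-phosphate route, which carries granzymes to the granule, had the narrowest range of the 6 lists. All 10 genes were tested, 8 higher and 2 lower (median log2 fold change 0.0248, 0 at an unadjusted p under 0.05). Their log2 fold changes ran from -0.02 to 0.08. The groups overlapped for each of them, while for 26% of all genes tested they did not. The receptors measured 244 and 295 CPM (IGF2R) and 103 and 130 CPM (M6PR) in NK scramble. In NK shADAR1 they measured 272 and 296 CPM (IGF2R) and 106 and 123 CPM (M6PR). GNPTG, a subunit of the enzyme that makes the tag, had a log2 fold change of 0.08 (SE 0.22). Of 14 genes that build the glycosaminoglycan chains of proteoglycans such as serglycin, 13 were tested, 7 higher and 6 lower. The median log2 fold change was 0.0217, and it ran from -0.0441 to 0.0439 over the alternatives that kept all 4 libraries. The chondroitin synthase CHSY1 was the most abundant, at 331 and 332 CPM in the NK scramble libraries, against 241 and 328 in the NK shADAR1 libraries. CHPF, a chondroitin polymerizing factor, ranged from 11.2 to 37.3 CPM with overlapping groups, a log2 fold change of -0.66 (SE 0.41), and 0.13 without NK scramble replicate 1. CSGALNACT1, which starts the chondroitin chain, was low, at 2.83 and 2.93 CPM in the NK scramble libraries, against 5.01 and 3.08 in the NK shADAR1 libraries.

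Of the 67 genes tested in the 6 lists, 2 (2.99%) had an unadjusted p under 0.05, near the 2.48% of all genes tested. Both were in the list of granule transport and exocytosis, of whose 15 genes 14 were tested, 11 higher and 3 lower, with a median log2 fold change of 0.096 (0.0273 without NK shADAR1 replicate 2 and 0.164 without NK scramble replicate 2). SYTL2, a Rab27a effector that docks granules at the membrane, measured 79.0 and 95.9 CPM in the NK scramble libraries, against 180.2 and 114 in the NK shADAR1 libraries. Its log2 fold change was 0.75 (SE 0.25, unadjusted p 0.0118) and was 0.39 (unadjusted p 0.161) without NK shADAR1 replicate 1. LYST, the lysosomal trafficking regulator lost in Chediak-Higashi syndrome, measured 20.4 and 18.2 CPM in the NK scramble libraries, against 31.9 and 28.97 in the NK shADAR1 libraries. Its log2 fold change was 0.66 (SE 0.20, unadjusted p 0.00882), and its unadjusted p was 0.0561 without NK scramble replicate 2. Neither passed after adjustment over all genes, and the study singled out both genes from these same libraries, so they are not independent evidence. RAB27A itself measured 137 and 180 CPM in the NK scramble libraries, against 175 and 162 in the NK shADAR1 libraries, with overlapping groups.

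Of 10 listed transcription regulators of NK cells all were tested, 3 higher and 7 lower, with a median log2 fold change of -0.025 and 0 at an unadjusted p under 0.05. Their action on the granule genes was not tested. STAT4, which signals for IL-12, measured 52.1 and 48.8 CPM in the NK scramble libraries, against 70.1 and 62.6 in the NK shADAR1 libraries, with a log2 fold change of 0.40 (SE 0.20, unadjusted p 0.0694). NFIL3, a factor of NK cell development, measured 77.2 and 74.6 CPM in the NK scramble libraries, against 54.8 and 68.8 in the NK shADAR1 libraries, with a log2 fold change of -0.30 (SE 0.21). ID2, the most abundant of the list, measured 223 and 225 CPM in the NK scramble libraries, against 259 and 187 in the NK shADAR1 libraries, the knockdown libraries lying on either side of the controls. RUNX3, named here after its values were seen because its motif was searched, measured 231 and 209 CPM in the NK scramble libraries, against 209 and 199 in the NK shADAR1 libraries, with a log2 fold change of -0.11 (SE 0.19). The T-box core was searched as well. For the T-box factors TBX21 (T-bet) and EOMES the log2 fold changes were -0.17 (SE 0.20) and 0.15 (SE 0.20), and the groups overlapped for each.

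**Figure D5:**
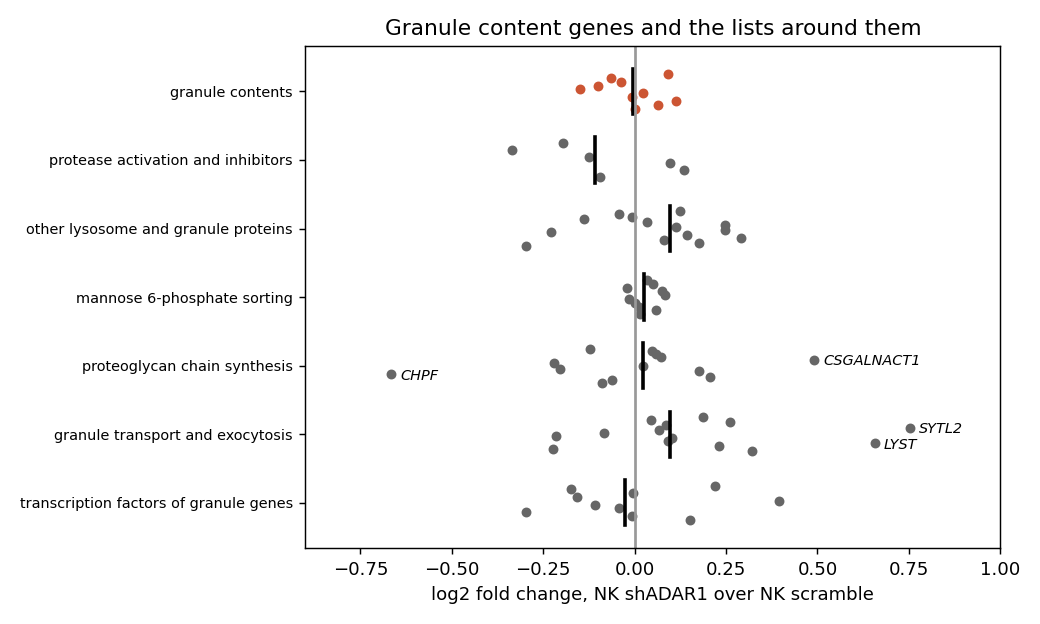
log2 fold change of NK shADAR1 over NK scramble for each tested gene (points, red for the granule contents and grey for the other lists), with the median of each list as a black bar. The granule contents span -0.15 to 0.11, and SYTL2, LYST, CSGALNACT1 and CHPF lie farthest from 0.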

How the data were processed

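NK-92 messenger RNA (2 NK scramble and 2 NK shADAR1 libraries) was analysed from 1 table, in which the authors had deposited estimated counts and FPKM for every gene and library. Reads had been filtered with fastp 0.18.0, per the submitters' processing notes, and the aligner, counter, genome build and annotation are not given in the sources used here. Estimated counts, rounded to whole numbers, were filtered with filterByExpr (minimum count 10), scaled by TMM and tested by edgeR 4.0.16 (glmQLFit and glmQLFTest, R 4.3.3) with Benjamini-Hochberg adjustment over all 11810 tested genes. DESeq2 1.42.0 and limma 3.58.1 on log2(FPKM + 1) or log2(FPKM + 0.1) were alternatives, and the fit was tested on simulated data. At the same threshold it called 88 of 99 genes simulated with a 4-fold change, 39 of 99 with a 2-fold change and 14 of 11466 without a change. Many changes of 2-fold would thus be missed. Symbols matched 20301 of 20323 identifiers. An exact two-sided permutation test of 2 against 2 libraries cannot go below p = 0.333, so none is given. The text names all 10 members and, from each further list, the 2 tested genes with the largest absolute log2 fold change, any with an unadjusted p under 0.05 and the most abundant by FPKM. Members and lists were chosen with earlier results of these data known. Intervals are 95% intervals from the fit. The longest coding transcript in GENCODE release 29 gave each gene's length and GC content.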

Additional observations from a re-analysis of the deposited data

How the results depend on the processing

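No granule content gene was called under any of the 17 alternatives. Over the table, 0 genes were called in the edgeR test as reported and 213 with an unadjusted p under 0.05 and the fold change. DESeq2 called 196 with the same unadjusted rule (chosen after seeing the data) and 0 after adjustment, with a smallest adjusted p of 0.146. The study gives the number found here by DESeq2 without adjustment as its count of differentially expressed genes after adjustment. That adjusted result was not reproduced here, and the reason was not tested. Leaving out 1 library gave 1 to 47 genes (47 without NK scramble replicate 1, 2 without NK scramble replicate 2, 16 without NK shADAR1 replicate 1 and 1 without NK shADAR1 replicate 2), and with 2 replicates a lone library is assumed to vary like the other group. A replicate block gave 13 genes and 0 members. The labels of same-numbered libraries share only a number, and their deviations from the group means had a correlation of 0.308 over 11810 genes. The correlation of log2 CPM between libraries was 0.981 within NK scramble, 0.981 within NK shADAR1 and 0.981 to 0.989 between the groups. Libraries of the same group were thus no more alike than libraries of different groups. The members whose groups did not overlap numbered 2 as reported (26% of all genes tested), 3 with library totals only (25.5%), 3 on FPKM (25.8%), GNLY being added in both, and 5 to 8 without 1 library, where 60.1% to 67.1% of all genes did not overlap. The members' median log2 fold change ran from -0.0757 to 0.0826 without 1 library, and their share difference from -0.0493 to 0.0583 percentage points.

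Values near 0 changed sign. After regression of each library on transcript length and GC content (chosen after seeing the data), the log2 fold change was -0.02 for GZMA, -0.08 for NKG7, -0.07 for SRGN, -0.03 for IGF2R, 0.03 for M6PR and 0.05 for ID2. GZMB was 0.00 with upper quartile scaling, 0.01 with library totals, 0.00 with a mean count of at least 50 and 0.00 on log2 FPKM with either pseudocount. NKG7 was 0.00 by DESeq2 and 0.00 with a filter of 1 count. On log2 FPKM, M6PR was 0.11 and ID2 0.18 with both pseudocounts, and ID2 was 0.01 with upper quartile scaling, 0.01 with library totals and 0.00 with a mean count of at least 50. Without 1 library, the values ran from -0.27 to 0.40 for GZMA, -0.43 to 0.22 for GZMK, -0.30 to 0.14 for GZMM, -0.09 to 0.07 for GZMB, -0.25 to 0.15 for PRF1, 0.00 to 0.23 for GNLY, -0.15 to 0.16 for NKG7 and -0.23 to 0.24 for SRGN, and kept their sign for GZMH (0.06 to 0.12) and CTSC (-0.21 to -0.09). They ran from -0.29 to 0.83 for CTSB, -0.14 to 0.28 for GNPTG, -0.06 to 0.21 for IGF2R, -0.18 to 0.15 for M6PR, -1.22 to 0.13 for CHPF, -0.10 to 0.30 for RAB27A and -0.26 to 0.21 for ID2. They kept their sign but ran from -0.66 to -0.07 for SERPINB6, -0.37 to -0.01 for SERPINB9, -0.47 to -0.14 for CALR, 0.11 to 0.39 for CTSW, 0.10 to 0.80 for CSGALNACT1, -0.46 to -0.01 for CHSY1, 0.39 to 1.04 for SYTL2, -0.47 to -0.14 for NFIL3 and -0.47 to -0.22 for ADAR. The list medians ran from -0.132 to 0.0486 (protease control), -0.0625 to 0.164 (lysosome and granule proteins), -0.0141 to 0.0531 (sorting), -0.173 to 0.123 (proteoglycan chains), 0.0273 to 0.164 (transport) and -0.111 to 0.0055 (transcription factors). With all 4 libraries kept, the alternatives moved the median from -0.0441 to 0.0439 for proteoglycan chains. It ran from -0.00135 to 0.039 for sorting, -0.0345 to 0.0309 for transcription factors and -0.0532 to 0.00839 for the granule contents. The other list medians kept their sign. The cause of these shifts was not tested.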
